A study of Mus musculus with 4 samples.

Results

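The 3 mouse osteocalcin genes (Bglap, Bglap2 and Bglap3) and 4 genes that work with them in bone (Runx2, Alpl, Sparc and Ibsp) were followed through an RNA-seq table of CT26 cells, a mouse colon carcinoma line. These 7 genes of 55335 in the table were picked by symbol after their values had been seen, so their differences are given as a description and carry no test. Bglap2 and Bglap stood between 6.29 and 64.2 FPKM in both libraries labelled FOSL2-KO with chemoradiotherapy and at no more than 0.706 FPKM in both labelled FOSL2-WT with PBS. The third osteocalcin gene, Bglap3, stayed at or below 0.287 FPKM in every library. Runx2 and Sparc were detected throughout and moved little, Alpl was at the level of a few fragments, and Ibsp was listed at 0 in all 4 libraries.

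Osteocalcin is a small protein that osteoblasts, the bone-forming cells, secrete into bone matrix. Vitamin K dependent carboxylation of its glutamate residues lets it bind calcium and hydroxyapatite. In the mouse it is encoded by Bglap and Bglap2, while Bglap3, also known as osteocalcin-related gene, is expressed mainly outside bone. RUNX2 is the transcription factor that osteoblast differentiation requires and binds osteocalcin promoters, and in mouse osteoblasts the Fosl2 product Fra-2, which forms AP-1 with a JUN partner, is also known to act on osteocalcin. Alkaline phosphatase (Alpl) supplies phosphate for mineral, SPARC (osteonectin) binds collagen and calcium, and bone sialoprotein (Ibsp) is a matrix protein on which mineral forms.

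The libraries titled CT26_102_R and CT26_CTL_R carry the labels FOSL2-KO and Chemoradiotherapy, and those titled CT26_102 and CT26_CTL carry the labels FOSL2-WT and PBS. Genotype and treatment coincide in these labels and cannot be told apart, the agents, doses and times are not given, and the labels do not say what the stems CT26_102 and CT26_CTL or the suffix R stand for. All 4 libraries come from the cultured line, grown with serum, whose labels call it both mesenchymal and a colon adenocarcinoma. The design text speaks of knockdown cells, and nothing says that libraries of a group were separate cultures, so a p-value measures only how far these libraries spread, and that spread may be technical. Values are FPKM, fragments scaled to transcript length and library depth, and that depth, estimated from the smallest steps in the values, was 21.6 to 26.4 M fragments (M for mega) per library. Fosl2 itself had 16.0 and 19.2 FPKM in the libraries labelled FOSL2-KO (CT26_102_R and CT26_CTL_R), against 9.35 and 12.7 FPKM in those labelled FOSL2-WT (CT26_102 and CT26_CTL), so its transcript went against the genotype label.

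Markers of the labelled tissue and of bone cells were set beside the members. Of 11 colon epithelium markers, 4 reached 1 FPKM in any library, while Epcam, Cdx1 and Cdx2 were listed at 0 in all 4. The keratin genes Krt18 (34.7 to 76.5 FPKM) and Krt20 (24.5 to 36.8 FPKM) were well detected, and the markers summed to 72.2 and 115 FPKM in CT26_102_R and CT26_CTL_R, against 67.04 and 68.4 FPKM in CT26_102 and CT26_CTL. Of 8 osteoblast and osteocyte markers, 5 reached 1 FPKM in any library, led by the collagen genes Col1a1 and Col1a2, and their summed level was 76.6 to 84.7 FPKM in the libraries labelled FOSL2-KO and 110 to 175 FPKM in those labelled FOSL2-WT. The defining osteoblast factor Sp7 was at or below 0.126 FPKM, Mepe was listed at 0 in every library and Sost was at or below 0.0224 FPKM. The 6 myeloid markers summed to 91.0 to 119 FPKM in the libraries labelled FOSL2-KO and 24.9 to 42.8 FPKM in those labelled FOSL2-WT. Most of each sum came from Cd68 and Lyz2, with Ptprc at or below 0.0880 FPKM. Cd68 was higher with R in both stems and, at 86.4 FPKM, made most of the sum in CT26_CTL_R. Lyz2 was higher in CT26_102_R than in CT26_102 but lower in CT26_CTL_R (4.36 FPKM) than in CT26_CTL (13.1 FPKM). The 6 osteoclast markers summed to 0.714 to 2.36 FPKM in the libraries labelled FOSL2-KO and 1.19 to 1.36 FPKM in those labelled FOSL2-WT. The 6 chondrocyte markers summed to 3.83 to 8.72 FPKM in the libraries labelled FOSL2-KO and 1.45 to 6.96 FPKM in those labelled FOSL2-WT, and the 6 fibroblast markers to 5.92 to 27.0 FPKM in the libraries labelled FOSL2-KO and 7.08 to 64.4 FPKM in those labelled FOSL2-WT. These ranges hide differences by stem. Col3a1 made most of the fibroblast sum in CT26_102_R and CT26_102, at 19.8 and 53.0 FPKM. It had 0.144 and 0.568 FPKM in CT26_CTL_R and CT26_CTL. Sox9 made most of the chondrocyte sum in CT26_CTL_R and CT26_CTL, at 7.91 and 6.85 FPKM. It had 0.807 and 1.15 FPKM in CT26_102_R and CT26_102. The 4 endothelial markers summed to at most 0.563 FPKM. The part of these markers in the osteocalcin values was not tested. In bulk RNA, fewer cells of a type and less RNA per cell cannot be told apart.

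The osteocalcin genes share so much sequence that their coding regions are shown first, since a fragment of one can often be placed on another. The spliced coding sequences, from GENCODE M21 transcripts, lie on the minus strand of GRCm38 chromosome 3 and span 88383635 to 88384415 (Bglap), 88377870 to 88378650 (Bglap2) and 88368756 to 88369536 (Bglap3). Each has 288 bases, and the capitals mark the 13 positions at which the 3 sequences are not all the same.
Bglap: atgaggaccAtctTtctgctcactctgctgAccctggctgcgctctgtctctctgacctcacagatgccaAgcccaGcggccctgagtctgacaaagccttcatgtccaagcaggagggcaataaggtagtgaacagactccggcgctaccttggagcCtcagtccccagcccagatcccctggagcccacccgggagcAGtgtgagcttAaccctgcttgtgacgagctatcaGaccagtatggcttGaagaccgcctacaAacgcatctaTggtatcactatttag
Bglap2: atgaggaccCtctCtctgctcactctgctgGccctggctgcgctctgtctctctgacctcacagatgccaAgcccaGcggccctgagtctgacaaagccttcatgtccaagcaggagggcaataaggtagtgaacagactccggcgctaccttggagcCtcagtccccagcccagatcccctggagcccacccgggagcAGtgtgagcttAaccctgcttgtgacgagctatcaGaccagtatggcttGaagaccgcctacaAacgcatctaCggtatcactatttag
Bglap3: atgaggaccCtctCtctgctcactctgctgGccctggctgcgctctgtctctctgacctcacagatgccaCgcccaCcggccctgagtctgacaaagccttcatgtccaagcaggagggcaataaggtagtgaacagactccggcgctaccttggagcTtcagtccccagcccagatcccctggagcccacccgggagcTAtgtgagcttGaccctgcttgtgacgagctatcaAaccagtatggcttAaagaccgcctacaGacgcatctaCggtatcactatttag
Bglap and Bglap2 differed at 4 of the 288 positions (98.6% identical), with an unbroken identical run of 241 bases. Bglap3 differed from Bglap2 at 9 positions (96.9% identical) and from Bglap at 13 (95.5% identical). Within the coding sequence its longest run in common with either was 81 bases. Over whole transcripts, 74.7% of the 50-base windows of Bglap occurred unchanged in Bglap2, and 31.6% of its 150-base windows did. Of the 50-base windows of Bglap2, 69.2% occurred in Bglap and 37.9% in Bglap3. Of those of Bglap3, 24.0% occurred in another gene. At 100 bases 3.24% of the Bglap3 windows did, in Bglap2 only, and at 150 bases none did. No gene outside the trio shared such a window. The sources used here give neither the read length nor the treatment of reads that match several genes, so the division of osteocalcin fragments between Bglap and Bglap2 is uncertain, and the summed level is given beside the single genes.

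Bglap2 (ENSMUSG00000074486, GRCm38 chromosome 3, 88377736 to 88378699, minus strand) had 64.2 FPKM in CT26_102_R and 14.1 FPKM in CT26_CTL_R, against 0.706 FPKM in CT26_102 and 0.615 FPKM in CT26_CTL. Both libraries labelled FOSL2-KO were far above both labelled FOSL2-WT, and CT26_102_R was the highest of all. These levels correspond to about 730 and 143 fragments in the R libraries and about 7 and 8 in the others. Within a stem the level was 90.9 times as high in CT26_102_R as in CT26_102 (95% interval 45.1 to 233) and 22.9 times as high in CT26_CTL_R as in CT26_CTL (10.8 to 51.5). These exact binomial intervals rest on approximate fragment numbers and cover counting error only, since fragments without molecular identifiers are not independent molecules. They show how closely the fragment numbers fix a ratio and are not tests.

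Bglap (ENSMUSG00000074483, chromosome 3, 88383501 to 88384464, minus strand) had 11.4 FPKM in CT26_102_R and 6.29 FPKM in CT26_CTL_R, against 0.172 FPKM in CT26_102 and 0.0701 FPKM in CT26_CTL. The groups were again far apart, and without the suffix R the values amounted to about 2 fragments and 1 fragment, under the 0.259 to 0.315 FPKM that 3 fragments make in its transcript. The ratio of CT26_102_R to CT26_102 was 66.2 (interval 14.7 to 452) and that of CT26_CTL_R to CT26_CTL was 89.7 (12.65 to 2939).

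Bglap3 (ENSMUSG00000074489, chromosome 3, 88368616 to 88372743, minus strand) had 0.287 FPKM in CT26_102_R and 0.0424 FPKM in CT26_CTL_R, against 0.0478 FPKM in CT26_102 and 0.138 FPKM in CT26_CTL. CT26_102_R was highest, at about 5 fragments, the other libraries were below 3 fragments, and the groups overlapped. No fold is given at these levels. Bglap3 thus did not share the high level of Bglap and Bglap2 in either R library. Whether its few fragments came from another osteocalcin gene was not tested.

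Summed over the 3 genes, osteocalcin had 75.8 FPKM in CT26_102_R and 20.4 FPKM in CT26_CTL_R, against 0.925 FPKM in CT26_102 and 0.823 FPKM in CT26_CTL. The sum was 82.0 times as high with the suffix R in stem CT26_102 and 24.8 times in stem CT26_CTL. It depends little on how fragments were divided within the trio, if each was counted for 1 gene. Fragments dropped or counted for several genes would change it, and their treatment is not given. At its highest it was 0.0203% of all FPKM in a library. Bglap2 made up 84.6% of the sum in CT26_102_R and 69.0% in CT26_CTL_R, against 76.3% in CT26_102 and 74.8% in CT26_CTL.

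**Figure D1:**
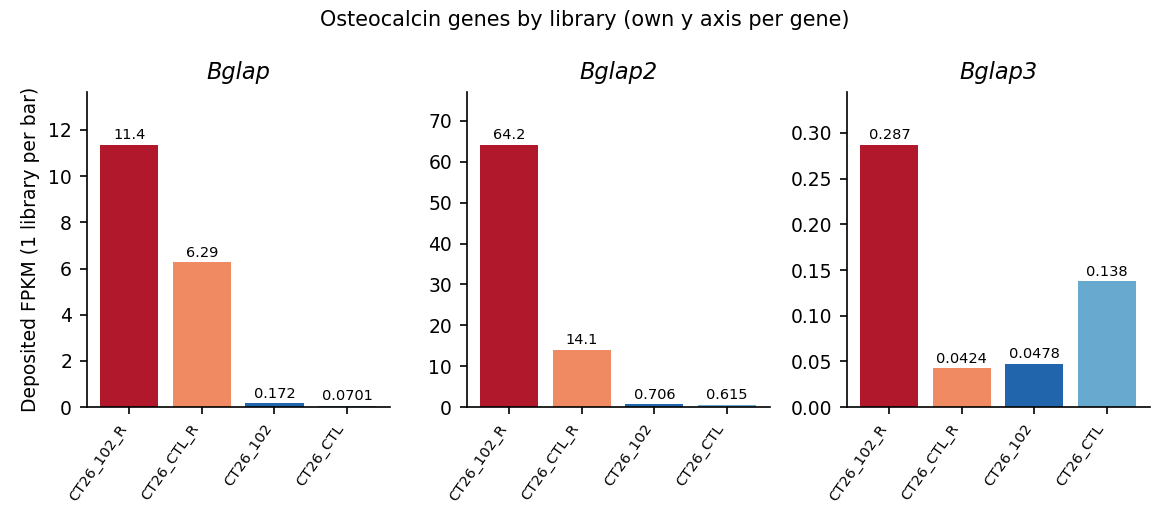
FPKM of Bglap, Bglap2 and Bglap3 (y axes, linear and from 0, one scale per panel) in each library (x axis). Each bar is 1 library with no error bar. Bglap2 stands at 64.2 FPKM in CT26_102_R and 14.1 FPKM in CT26_CTL_R, against under 1 FPKM in both libraries without the suffix R.

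On the log2(FPKM + 1) scale, which understates changes of low genes, Bglap2 was higher by 5.26 in CT26_102_R and by 3.22 in CT26_CTL_R than in the library of the same stem. For Bglap these differences were 3.40 and 2.77. Their means over both stems were 4.24 for Bglap2 and 3.08 for Bglap, and with a pseudocount of 0.1 both were 5.31, so the gap between the pair on this scale depends on the pseudocount. Of the 11955 genes with at least 1 FPKM in at least 2 libraries, 204 (1.71%) were higher by at least 1 on this scale in both stems, a set that holds both genes, as their choice made sure.

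**Figure D2:**
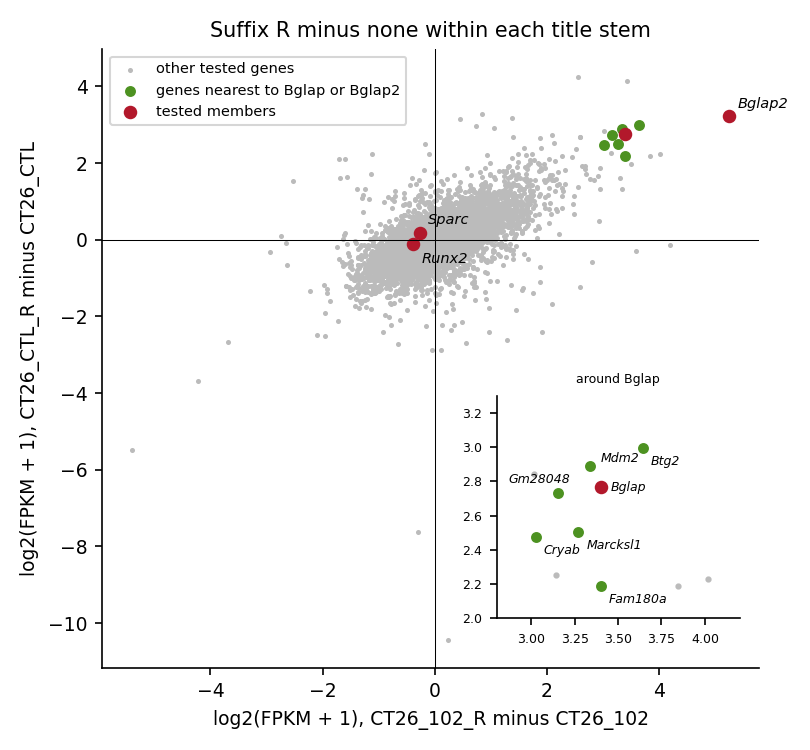
Difference in log2(FPKM + 1) of the R library minus the library without R, in stem CT26_102 (x axis) and in stem CT26_CTL (y axis), for the 11955 tested genes as points. Bglap2 lies at 5.26 and 3.22, Bglap at 3.40 and 2.77 (enlarged in the inset with the genes nearest to it), and Runx2 and Sparc lie near 0 on both axes.

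Between the libraries with the suffix R, the Bglap2 level was 4.56 times as high in CT26_102_R as in CT26_CTL_R (interval 3.81 to 5.50) and the Bglap level 1.81 times as high (1.31 to 2.50), with 1 library on each side. Without the suffix, Bglap2 in CT26_102 was 1.15 times its level in CT26_CTL (interval 0.329 to 3.37), from about 7 and 8 fragments. The summed level was 3.72 times as high in CT26_102_R as in CT26_CTL_R and 1.12 times as high in CT26_102 as in CT26_CTL. The Bglap2 level was 5.65 times that of Bglap in CT26_102_R and 2.24 times in CT26_CTL_R, which the shared sequence leaves uncertain.

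Runx2 (ENSMUSG00000039153, chromosome 17, 44495987 to 44814797, minus strand) had 3.08 FPKM in CT26_102_R and 3.88 FPKM in CT26_CTL_R, against 4.32 FPKM in each of CT26_102 and CT26_CTL. Both R libraries were below both others, by 0.38 on the log2(FPKM + 1) scale in stem CT26_102 and 0.13 in stem CT26_CTL, while osteocalcin was higher in the same libraries. Annotated genes on the opposite strand overlap Runx2, and the strandedness of the counting is not given. Runx2os1, an antisense transcript, shares 519 exonic bases with Runx2, where reads of the pair cannot be told apart without strand. It had 0.912 and 3.20 FPKM in CT26_102_R and CT26_CTL_R, against 0.740 and 1.49 FPKM in CT26_102 and CT26_CTL. Runx2os2 shares no exonic base and had 0.245 and 0.641 FPKM in the R libraries, against 1.48 and 1.21 FPKM in the others. Supt3, a protein-coding gene on the opposite strand that also shares no exonic base, had 3.92 and 4.28 FPKM in the R libraries, against 6.25 and 6.12 FPKM in the others.

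Sparc (ENSMUSG00000018593, chromosome 11, 55394500 to 55423183, minus strand) had 75.3 FPKM in CT26_102_R and 68.2 FPKM in CT26_CTL_R, against 90.6 FPKM in CT26_102 and 60.0 FPKM in CT26_CTL. The labelled groups overlapped and the direction turned with the stem, with a log2 difference of -0.26 in CT26_102 and 0.18 in CT26_CTL. By stem, both CT26_102 libraries were above both CT26_CTL libraries, by 0.14 with the suffix R and 0.59 without it. Sparc was the most abundant of the 7 genes in every library, and in CT26_102_R the osteocalcin sum of 75.8 FPKM stood beside 75.3 FPKM for Sparc.

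Alpl (ENSMUSG00000028766, chromosome 4, 137741733 to 137796384, minus strand) had 0.0882 FPKM in CT26_102_R and was listed at 0 in CT26_CTL_R, against 0.0571 FPKM in CT26_102 and 0.0188 FPKM in CT26_CTL. About 5 fragments lay behind the highest of these values, and the groups overlapped. Ibsp (ENSMUSG00000029306, chromosome 5, 104299171 to 104311469, plus strand) was listed at 0 in all 4 libraries, where 3 fragments would make 0.0550 to 0.0671 FPKM.

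**Figure D3:**
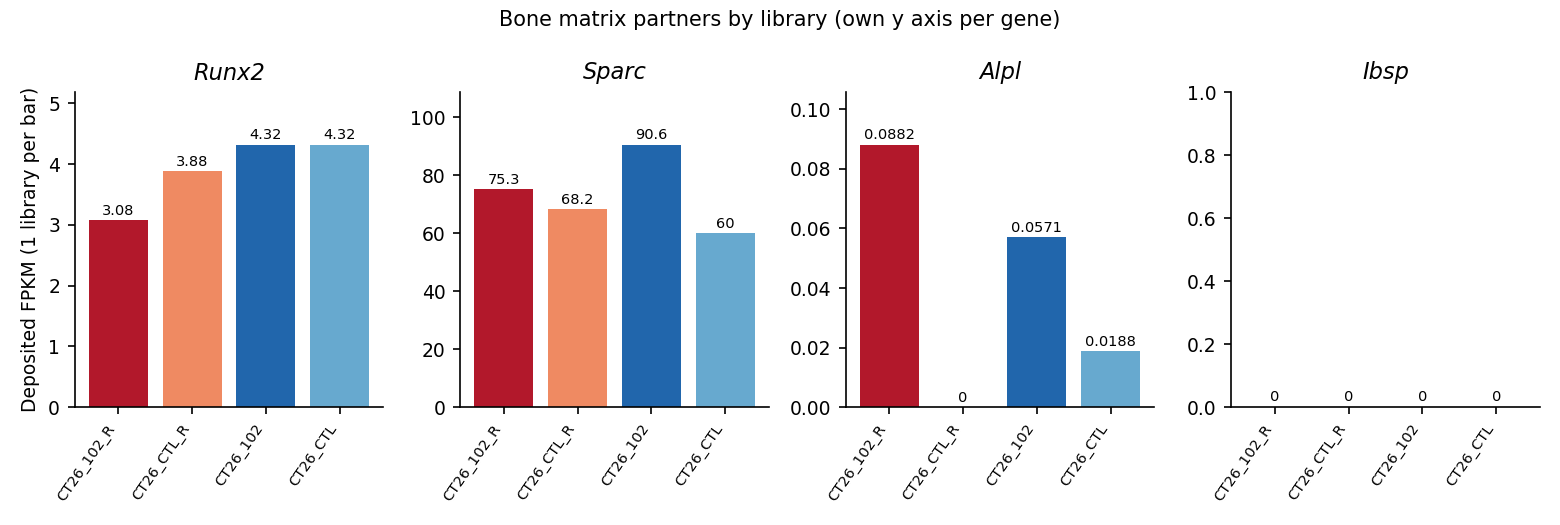
FPKM of Runx2, Sparc, Alpl and Ibsp (y axes, linear and from 0, one scale per panel) in each library (x axis). Each bar is 1 library with no error bar; Runx2 is lowest in CT26_102_R at 3.08 FPKM, Sparc lies between 60.0 and 90.6 FPKM, and the Ibsp panel is empty because the gene is listed at 0.

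Across genes, the difference between the labelled groups (R minus none) and that between the title stems (CT26_102 minus CT26_CTL) were fitted together with limma on log2(FPKM + 1), with Benjamini-Hochberg adjustment over the 11955 genes tested and calls at an adjusted p under 0.05. Of the 7 members, 4 entered this fit. Runx2 and Sparc passed its filter on low values in every library, Bglap and Bglap2 passed it only through the R libraries, and Bglap3, Alpl and Ibsp did not pass. Between the labelled groups 2 of the 4 were called higher, Bglap2 and Bglap, beside 7.57% of all tested genes, and 0 were called lower, beside 5.32%. Between the stems 0 of the 4 were called higher, beside 12.5% of all tested genes, and 0 lower, beside 9.44%, and 0 had an unadjusted p under 0.05. Nothing is read from these counts, since the same values chose the genes and the filter let the pair through on the R libraries alone. Without the stem in the fit, or without the filter, neither was called.

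The trio stands in a row on chromosome 3, with 4801 bases between Bglap and Bglap2 and 4992 bases between Bglap2 and Bglap3. The other annotated genes within 20 kb lacked the large difference of Bglap and Bglap2 between libraries with and without R. Smg5, a gene of nonsense-mediated mRNA decay, had 19.6 and 17.1 FPKM in CT26_102_R and CT26_CTL_R, against 16.8 and 13.4 FPKM in CT26_102 and CT26_CTL. Pmf1, a kinetochore gene that lies 9679 bases from Bglap, had 10.4 and 13.6 FPKM in the R libraries, against 16.1 and 18.5 FPKM in the others, so the R libraries were higher for Smg5 and lower for Pmf1. Paqr6, 75 bases from Bglap3, was at or below 0.0510 FPKM. The pseudogenes between the osteocalcin genes were at or below 0.158 FPKM (Gm21956) and listed at 0 (Gm6821) in all 4 libraries.

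**Figure D4:**
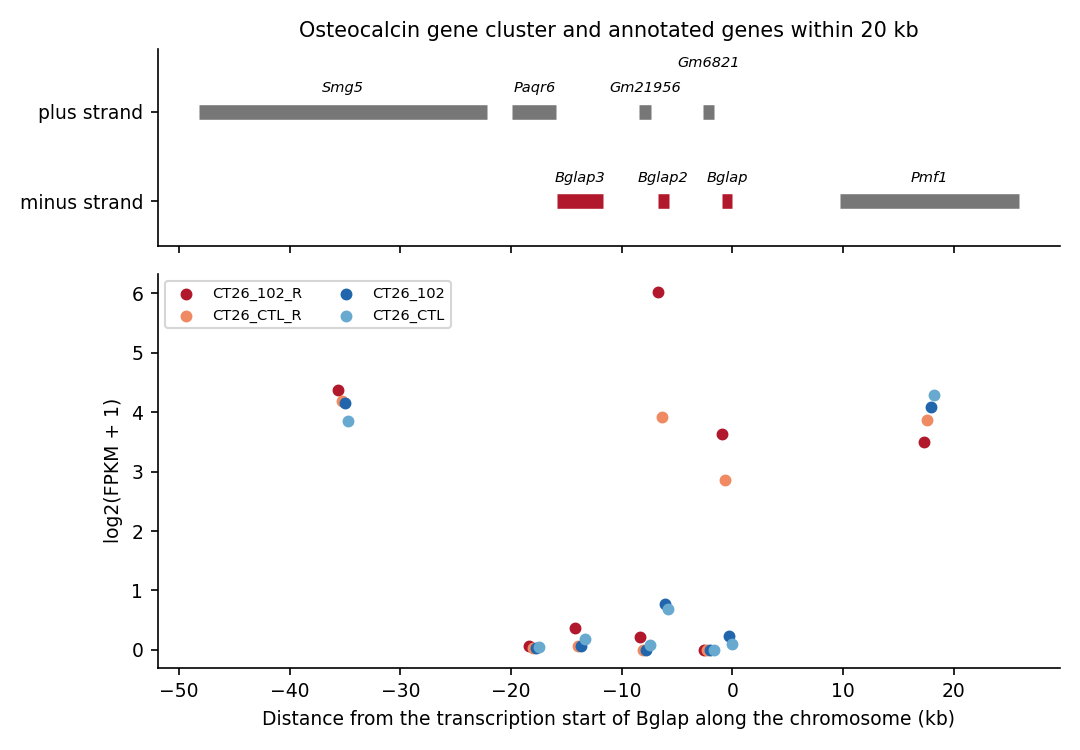
Upper panel, the annotated genes around the osteocalcin trio by strand, drawn to scale as distance from the transcription start of Bglap in kb (x axis). Lower panel, log2(FPKM + 1) of each gene in each library (points, spread sideways for clarity), where Bglap and Bglap2 separate the R libraries from the others and Smg5 and Pmf1 do not separate by more than about 1 unit.

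The Bglap promoter is shown because it holds a letter match for the factor among the members, Runx2. The 250 bases before the start, from RefSeq on GRCm38.p6 (chr3:88384467-88384716, minus strand), carry in capitals a RUNX motif (TGTGGT, here as its reverse complement ACCACA) that begins 132 bases before the start and a TATA motif (TATAAA) that begins 27 bases before it.
Bglap promoter: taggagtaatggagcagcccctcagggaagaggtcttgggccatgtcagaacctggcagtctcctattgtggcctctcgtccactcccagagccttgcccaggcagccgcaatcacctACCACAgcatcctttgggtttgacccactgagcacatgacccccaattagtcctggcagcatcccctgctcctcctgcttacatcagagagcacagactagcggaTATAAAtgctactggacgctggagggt
The motifs were searched as exact letters on both strands, and the pair of matches does not overlap here. The AP-1 motif TGANTCA was not in these letters. Of 32851 promoter entries, 14.0% held the RUNX motif, 12.4% the TATA motif and 6.75% the AP-1 motif in a window of this length. The table had 9 entries for 6 of the 7 members, without one for Bglap2. Beside Bglap, the RUNX motif was in the entry of Runx2 itself, 80 bases before its start, and in no entry of Bglap3, Alpl, Ibsp or Sparc. The TATA motif was in the Ibsp entry, 28 bases before the start, and in 1 Alpl entry, 192 bases before it, and the AP-1 motif was in none of the 9. These matches describe letters and not bound sites.

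The genes most like each tested member were found by the distance between profiles of log2(FPKM + 1), each centred on its own mean over the 4 libraries. Nearest to Bglap were Mdm2 (distance 0.116), Btg2 (0.251), the predicted gene Gm28048 (0.293), Marcksl1 (0.408) and Cryab (0.442). Mdm2, the ubiquitin ligase gene whose product turns over p53, had 486 and 292 FPKM in CT26_102_R and CT26_CTL_R, against 47.2 and 38.5 FPKM in CT26_102 and CT26_CTL. Btg2, an antiproliferative gene, had 83.7 and 51.8 FPKM in the R libraries, against 5.78 and 5.62 FPKM in the others, so both, like Bglap, were highest in CT26_102_R. Nearest to Bglap2 were Btg2 (1.37) and Mdm2 (1.495), at a larger distance than for Bglap, and the next were Fam180a, Marcksl1 and Gm28048, with the same 5 genes leading for the osteocalcin sum. Gm28048 and Fam180a, like Bglap and Bglap2, passed the filter on low values only through the R libraries, so nothing is read from their likeness. Nearest to Runx2 were Bri3bp (0.0214) and Rhot2 (0.0321), with Mapk12, Lman1 and Erp29 next. Nearest to Sparc were Eme1 (0.0165) and Bbs2 (0.0427), and the list also held Ilk (0.0454), an integrin-linked kinase. With 4 libraries such distances separate few patterns. They were found with a pseudocount of 1 only, which compresses the Bglap values without R, of about 2 fragments and 1 fragment. With a pseudocount of 0.1 the labelled group difference of Bglap moved from 3.08 to 5.31. Its level was 66.2 and 89.7 times as high with R in stems CT26_102 and CT26_CTL, so closeness to Mdm2 and Btg2 does not mean equal folds.

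Around the members, 135 genes in 10 lists of bone and mineral biology were examined, of which 66 were expressed enough to be tested and 25 were listed at 0 in every library. Between the labelled groups 4 rose and 3 fell, 10.6% of those tested, beside 12.9% of all tested genes, and the median log2 difference was -0.04 beside 0.00425 for all tested genes. Between the stems 18 rose and 11 fell, 43.9% of those tested, beside 21.9% of all tested genes, with a median of 0.16 beside 0.05. Every one of these calls was lost when the tested factor stood alone in the fit or when the low-value filter was removed. The lists were chosen with earlier results of these data known, so the shares are given as a description and nothing is read from them. With upper-quartile and median-of-ratios rescaling the median stem difference of all tested genes turned from 0.05 to -0.06 and -0.04, and the stem calls over all genes turned from 1494 higher and 1129 lower to 1190 and 1928, and to 1046 and 1544.

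**Figure D5:**
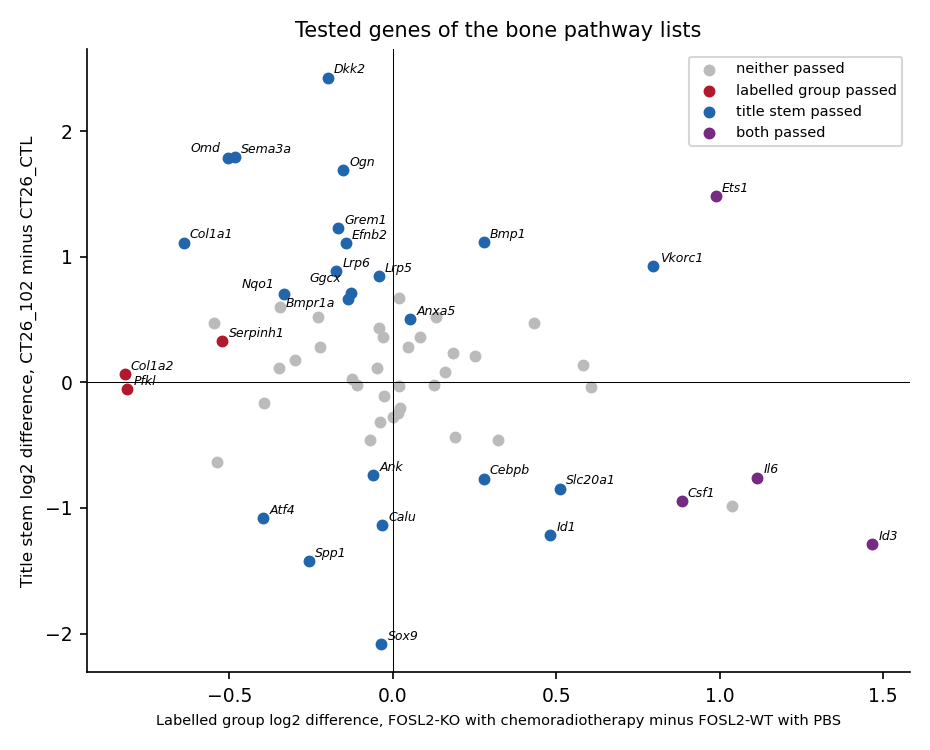
Tested genes of the bone lists, without those not reported, as the log2 difference between the labelled groups (x axis, FOSL2-KO with chemoradiotherapy minus FOSL2-WT with PBS) and between the title stems (y axis, CT26_102 minus CT26_CTL). Points are genes, coloured by which contrast passed an adjusted p of 0.05; most coloured points, among them Dkk2 at 2.43 and Sox9 at -2.08, passed for the stem.

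Osteoblast transcription factors gave 1 gene that rose, 0 that fell and 12 that did not pass of 13 tested between the labelled groups (median -0.04), and 2 that rose, 3 that fell and 8 that did not pass between the stems (median -0.02). Ets1, an ETS factor, had 17.9 and 5.44 FPKM in CT26_102_R and CT26_CTL_R, against 8.07 and 2.40 FPKM in CT26_102 and CT26_CTL, and rose by 0.99 between the labelled groups (limma adjusted p = 0.0252) and by 1.48 between the stems (adjusted p = 0.00784). Sox9, the chondrocyte factor, had 0.807 and 1.15 FPKM in the CT26_102 libraries (with and without R), against 7.91 and 6.85 FPKM in the CT26_CTL libraries, a stem difference of -2.08 (adjusted p = 0.00620). Atf4, a factor of amino acid and osteoblast metabolism, fell by 1.08 in CT26_102 relative to CT26_CTL (adjusted p = 0.0486) and lost the call with a pseudocount of 0.1 (adjusted p = 0.0561).

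The mineralised matrix list gave 0 genes that rose, 2 that fell and 8 that did not pass of 10 tested between the labelled groups (median -0.20), and 3 that rose, 1 that fell and 6 that did not pass between the stems (median 0.22). Col1a2, a chain of type I collagen, had 49.6 and 57.8 FPKM in CT26_102_R and CT26_CTL_R, against 108 and 84.6 FPKM in CT26_102 and CT26_CTL, and fell by 0.82 (adjusted p = 0.0436, or 0.0522 with median-of-ratios rescaling). Serpinh1, the collagen chaperone, had 69.5 and 55.3 FPKM in the R libraries, against 101 and 79.6 FPKM in the others, and fell by 0.52 (adjusted p = 0.0452). These 2 called genes were lower in the libraries in which osteocalcin was higher. Col1a1 was lower by 0.64 between the labelled groups and did not pass (limma adjusted p = 0.0806). Ppib, P3h1 and Crtap of the same list were higher by 0.25, 0.18 and 0.16 and did not pass either, while its other tested genes were lower. Osteopontin (Spp1), the most abundant matrix gene of the list, had 351 and 495 FPKM in the CT26_102 libraries, against 1111 and 1123 FPKM in the CT26_CTL libraries, and fell by 1.42 between the stems (adjusted p = 0.00784). The proteoglycan genes Omd and Ogn rose by 1.79 and 1.69 between the stems (limma adjusted p = 0.0156 and 0.00784). Omd had 3.47 and 7.70 FPKM in CT26_102_R and CT26_102, against 0.777 and 0.837 FPKM in CT26_CTL_R and CT26_CTL. It passed the filter on low values only through the CT26_102 libraries, so nothing is read from its call. Col1a1, the other chain of type I collagen, rose by 1.11 between the stems (limma adjusted p = 0.0220).

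Of the SPARC list, 3 of 11 genes were tested with limma and 0 passed in either contrast (0 between the labelled groups and 1 between the stems had an unadjusted p under 0.05), with medians of -0.03 and 0.36. Itgb1, an integrin subunit, was at 100 to 113 FPKM, Ilk at 25.5 to 37.6 FPKM and the adhesion receptor Vcam1 at 5.23 to 9.47 FPKM. Phosphate and pyrophosphate handling gave 0 that rose, 1 that fell and 6 that did not pass of 7 tested between the labelled groups (median -0.06), and 1 that rose, 2 that fell and 4 that did not pass between the stems (median -0.11). The gene that fell was Pfkl, a phosphofructokinase of glycolysis, with 17.6 and 21.4 FPKM in CT26_102_R and CT26_CTL_R, against 36.9 and 32.9 FPKM in CT26_102 and CT26_CTL (log2 difference -0.81, adjusted p = 0.0408). Between the stems the phosphate transporter Slc20a1 fell by 0.85 (adjusted p = 0.0185), the pyrophosphate transporter Ank fell by 0.74 (adjusted p = 0.0212) and Anxa5, which binds phospholipid and calcium, rose by 0.51 (adjusted p = 0.0218).

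Vitamin K carboxylation, which modifies osteocalcin protein, gave 0 of 8 tested genes past the limma threshold between the labelled groups (median 0.02, 2 genes with an unadjusted p under 0.05), and 4 that rose, 1 that fell and 3 that did not pass between the stems (median 0.41). Ggcx, the gamma-glutamyl carboxylase, had 7.72 and 9.40 FPKM in the CT26_102 libraries (with and without R), against 4.81 and 4.80 FPKM in the CT26_CTL libraries, and rose by 0.71 (adjusted p = 0.0310). Vkorc1, which recycles vitamin K, had 19.0 and 7.96 FPKM in the CT26_102 libraries, against 7.21 and 5.07 FPKM in the CT26_CTL libraries, and rose by 0.92 (adjusted p = 0.0389). Calu, whose product binds calcium and inhibits the carboxylase, had 62.0 and 46.4 FPKM in the CT26_102 libraries, against 101 and 141 FPKM in the CT26_CTL libraries, and fell by 1.14 (adjusted p = 0.0301). The quinone reductase gene Nqo1 rose by 0.70 (adjusted p = 0.0411), a call lost with median-of-ratios and with upper-quartile rescaling (adjusted p = 0.0639 and 0.0574). All 3 genes listed as osteocalcin receptors, Gprc6a, Gpr158 and Gpr37, were listed at 0 in every library.

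Of the vitamin D and parathyroid hormone list, 3 of 8 genes were tested with limma and 0 passed in either contrast (0 between the labelled groups and 1 between the stems had an unadjusted p under 0.05), with medians of -0.12 and 0.18. The retinoid X receptors Rxra and Rxrb, partners of the vitamin D receptor, were at 7.35 to 8.52 FPKM and 8.21 to 11.8 FPKM, and Pthlh, a hormone gene, at 0.650 to 2.08 FPKM. Vdr, the vitamin D receptor, which acts on osteocalcin promoters in human and rat, did not pass the filter and had 1.67 and 0.796 FPKM in CT26_102_R and CT26_CTL_R, against 0.700 and 0.261 FPKM in CT26_102 and CT26_CTL.

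BMP genes gave 1 that rose, 0 that fell and 11 that did not pass of 12 tested between the labelled groups (median 0.07), and 3 that rose, 2 that fell and 7 that did not pass between the stems (median 0.06). The BMP target Id3 had 10.2 and 21.3 FPKM in CT26_102_R and CT26_CTL_R, against 2.31 and 8.88 FPKM in CT26_102 and CT26_CTL, and rose by 1.47 between the labelled groups (adjusted p = 0.0223). Between the stems Id3 fell by 1.29 (adjusted p = 0.0162) and Id1 by 1.21 (adjusted p = 0.0107), while the BMP antagonist Grem1 rose by 1.23 (adjusted p = 0.00947) and the procollagen protease Bmp1 by 1.12 (adjusted p = 0.0139). Wnt genes gave 0 of 5 tested past the limma threshold between the labelled groups (median -0.17, 0 with an unadjusted p under 0.05), and 3 that rose, 0 that fell and 2 that did not pass between the stems (median 0.84). Dkk2, a Wnt antagonist, had 11.9 and 16.8 FPKM in the CT26_102 libraries, against 1.89 and 1.75 FPKM in the CT26_CTL libraries, and rose by 2.43 (adjusted p = 0.00519). The Wnt co-receptors Lrp6 and Lrp5 rose by 0.88 and 0.84 (adjusted p = 0.0236 and 0.0230).

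Osteoclast coupling genes, through which bone-forming cells act on bone-resorbing ones, gave 2 that rose, 0 that fell and 3 that did not pass of 5 tested between the labelled groups (median -0.05), and 2 that rose, 2 that fell and 1 that did not pass between the stems (median 0.12). Csf1, the macrophage growth factor that osteoclast precursors need, had 55.9 and 90.9 FPKM in CT26_102_R and CT26_CTL_R, against 24.9 and 58.3 FPKM in CT26_102 and CT26_CTL, and rose by 0.88 (adjusted p = 0.0370). The cytokine gene Il6 had 1.18 and 2.73 FPKM in the R libraries, against 0.0190 and 0.705 FPKM in the others. It rose by 1.11 (limma adjusted p = 0.0252). Il6 passed the filter on low values only through the R libraries, so nothing is read from this call, which is among the 2 that rose. Between the stems Csf1 fell by 0.94 (adjusted p = 0.0220) and Il6 by 0.76 (adjusted p = 0.0320, or 0.0554 with a pseudocount of 0.1). The guidance gene Sema3a rose by 1.79 (adjusted p = 0.00582) and the ephrin gene Efnb2 by 1.11 (adjusted p = 0.0119). Tnfsf11, which encodes the osteoclast factor RANKL, was listed at 0 in every library.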

How the data were processed

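The authors deposited 1 table of FPKM per gene for 4 CT26 libraries. Per the labels' protocols, RNeasy RNA was used for SMARTer mRNA-Seq libraries. The submitters' processing notes name GRCm38 and mm10, and the sources used here give no aligner, quantifier, annotation, strandedness or read length. Of 55335 identifiers, 55154 (99.67%) matched GENCODE M21, used for positions and transcripts. Promoters came from RefSeq on GRCm38.p6.

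The 7 members and the lists of related genes were chosen with earlier results of these data known, so member values and the list shares are descriptive. FPKM was analysed as log2(FPKM + 1), keeping 11955 genes with at least 1 FPKM in at least 2 libraries, with limma 3.58.1 in R 4.3.3 (lmFit, then eBayes with trend), two-sided, Benjamini-Hochberg adjusted at 0.05. The fit held the labelled group and the title stem together, with 1 residual degree of freedom and 4.01 prior degrees of freedom. The stem, taken from the titles, pairs a library with R to one without, and deviations of same-stem libraries from their group means correlated at 0.723 across genes. An exact permutation test of 2 against 2 cannot go below 0.333, so none was run.

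Depth was estimated from the commonest low value of FPKM times length in genes with 1 transcript of at least 300 bases. Of values up to 5 fragments, 27.8% to 28.7% were whole within 0.02, so fragment numbers are approximate and no count test was used. Ratio intervals are exact binomial intervals at 95%. From each list the text names the genes past the threshold in either contrast, up to 4 per contrast by size of difference, and, for lists with fewer than 4 tested genes, those genes by level, with Vdr, Tnfsf11 and the receptor genes added after their values were seen. Some genes that met this rule are not reported here. The 5 nearest genes are named or ranked by distance. The code was tested on simulated data. Other settings were a pseudocount of 0.1, no filter, upper-quartile and median-of-ratios rescaling, the tested factor alone and leaving out each library.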

Additional observations from a re-analysis of the deposited data

Results flagged for a closer look

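Some untested differences turned sign between the matched pairs of libraries. The log2(FPKM + 1) difference between the R library and the library without R was 0.2969 for Bglap3 in stem CT26_102 and -0.1261 in stem CT26_CTL, where both rest on a few fragments. Bglap3 differed between stems by 0.3044 with the suffix R and by -0.1187 without it. Alpl had a difference of 0.04185 in stem CT26_102 and -0.02688 in stem CT26_CTL, again from a few fragments. Sparc, the one of these 3 genes with a high level, had -0.2633 in stem CT26_102 and 0.1819 in stem CT26_CTL. Runx2 differed between stems by -0.2579 with the suffix R and by 2.41e-05 without it. None of these differences between pairs was tested, since each pair holds 1 library on each side.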

How the results depend on the processing

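Without the low-value filter, limma called 0 genes in each contrast and 0 list genes (4937 group and 5802 stem genes had an unadjusted p under 0.05, of 27670). With the tested factor alone and no replicate block, it called 1 gene for the labelled group and 34 for the stem and 0 and 0 list genes (1281 and 2000 unadjusted). Leaving out each library in turn, fitted with the tested factor alone and the lone sample assumed to vary like the others, called 2 to 11 genes for the group (3 without CT26_102_R, 2 without CT26_CTL_R, 6 without CT26_102, 11 without CT26_CTL), 0 to 16 for the stem (16, 0, 4 and 7 in that order) and 0 list genes each time (691 to 1201 and 951 to 1809 unadjusted). With both factors, leaving out a library left no residual degrees of freedom. A pseudocount of 0.1 (1299 and 2489 genes), upper-quartile rescaling (1995 and 3118) and median-of-ratios rescaling (1339 and 2590) kept the counts within 1.5 times of 1541 and 2623. Leaving out a library leaves 1 matched pair for a member, so its difference becomes that pair's own, such as 0.08 or 2.11 for Bglap2 between stems and -0.26 or 0.18 for Sparc between labelled groups. With a pseudocount of 0.1 the stem difference of Alpl moved to 0.66 and the labelled group difference of Bglap to 5.31, and the Bglap difference was 3.07 to 3.08 under both rescalings. Bglap3, Alpl, Ibsp and the osteocalcin values without R are limited by depth.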
